A study of Mus musculus with 768 samples.

Results

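The 33 genes described here encode the protein folding machinery of the endoplasmic reticulum (ER) and the sensors, transcription factors and outputs of the ER stress response. They are a list of names chosen by function, with earlier results of these data known. Each of the 33 was found by its Ensembl identifier among the 25700 genes of the deposited count table. The RNA came from single Schwann cells, the glia of peripheral nerve, of the sciatic nerves of C57bl/6J mouse pups at postnatal day 5 (P5). All mice carried 1 copy each of P0Cre, of the Cre-dependent reporter ReYFP and of βAct-DsRed, so every sample shares these transgenes. P0Cre is active in the Schwann cell lineage, and YFP marks any cell in which it was once active. Single YFP-positive cells went into the wells of 2 plates of 384 each, and their RNA was sequenced along its full length with Smart-Seq2. Each plate held cells pooled from a male and a female mouse and is 1 biological replicate, so that n = 2 for every comparison.

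Of the 768 wells, 655 had at least 1500 detected genes and lay outside the plate corners, 325 in plate 1 and 330 in plate 2. These wells held a median of 593534 reads in plate 1 (range 3306 to 2495101) and 559286 in plate 2 (range 31127 to 2149795). They were divided by the levels of other genes, none of them among the 33. Cycling wells (32 and 25 in the 2 plates) had at least 5 reads in 3 or more of 10 cell cycle genes. The other wells were called immature (106 and 122) where Ncmap was under 10 CPM (reads of the gene per 1000000 reads of the well), intermediate (79 and 70) where Pmp22 was under 30000 CPM, and myelinating (108 and 113) above that. The states are ranges of a continuum: 63 of the 149 intermediate wells, 45 of the 221 myelinating wells and 9 of the 228 immature wells lay near a limit. At least 5 reads in each of 3 or more genes of a Schwann cell list were found in 640 of the 655 wells (97.7%). By the same rule the immature list (Ngfr, Ncam1, L1cam and others) was met by 42.5% of immature, 70.2% of cycling, 3.36% of intermediate and 0% of myelinating wells. The myelinating list was met by 654 of the 655 wells and so did not separate the states. Lists for fibroblast-like, endothelial, immune, pericyte, neuronal and muscle cells were met by 0 of 655 wells each, which allows a share of up to 0.458% of wells.

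Proteins that are secreted or inserted into membranes fold in the ER, where chaperones hold unfolded chains and disulfide isomerases join and rearrange their cysteine bonds. When unfolded protein builds up, the sensors Ern1 (IRE1), Eif2ak3 (PERK) and Atf6 leave the chaperone Hspa5 (BiP) and start the unfolded protein response. Ern1 splices the Xbp1 messenger RNA, Eif2ak3 slows translation and so raises Atf4 protein, and Atf6 is cut to release a transcription factor. Together these factors raise chaperones, the machinery that exports misfolded proteins for degradation (ER-associated degradation), and with lasting stress the transcription factor Ddit3 (CHOP). Myelinating Schwann cells send large amounts of membrane glycoprotein through the ER. Splicing of Xbp1, cleavage of Atf6 and translation of Atf4 are steps that counts of reads per gene do not show.

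Xbp1 and Atf6 act through the ER stress response element, CCAAT, then any 9 bases, then CCACG. The element was searched on both strands in the RefSeq promoter windows of GRCm38.p6, which span 250 bases before to 50 bases after each gene start, and 28 of the 33 members have a window (all but Hyou1, Manf, Derl1, Atf6 and Ppp1r15b). It was found in 9 of the 28, or 32.1%, and in 37 of all 27025 genes with a window, or 0.137%. A gene can have more than 1 window, and 39 of all 32851 windows (0.119%) held a match. The 10 matches are shown because they mark which members carry the known element of this response. Each is printed with 5 bases on either side, on the strand that reads CCAAT before CCACG, with those letters in capitals.
Hspa5, chr2:34772020-34772048, plus strand: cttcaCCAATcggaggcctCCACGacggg
Hsp90b1, chr10:86705633-86705661, minus strand: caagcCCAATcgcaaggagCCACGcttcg
Hsp90b1, chr10:86705528-86705556, plus strand: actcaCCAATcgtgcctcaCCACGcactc
Dnajc3, chr14:118937822-118937850, plus strand: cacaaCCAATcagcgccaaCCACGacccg
Creld2, chr15:88819515-88819543, minus strand: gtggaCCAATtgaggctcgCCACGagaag
Calr, chr8:84847070-84847098, plus strand: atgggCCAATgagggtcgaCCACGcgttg
Canx, chr11:50325795-50325823, minus strand: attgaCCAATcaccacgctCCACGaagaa
Pdia6, chr12:17266486-17266514, plus strand: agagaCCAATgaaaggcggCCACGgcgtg
Syvn1, chr19:6046527-6046555, plus strand: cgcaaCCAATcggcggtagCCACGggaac
Derl3, chr10:75893237-75893265, minus strand: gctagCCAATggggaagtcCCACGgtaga
Distances here are from the RefSeq start of each window, which can differ from the GENCODE start. The nearest match to a start was that of Syvn1, which began 44 bases before it. The farthest was the minus-strand match of Hsp90b1, which began 212 bases before it. The match of Hspa5 began 65 bases before its RefSeq start. It lies inside the GENCODE gene model of Hspa5, which begins at chr2:34771970.

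The longer promoter of Canx is given as context, since Canx was the only member that any of the fits below called higher. These are the 250 bases before its start, chr11:50325674-50325923 on the minus strand, with the element in capitals. They overlap 0 gene models of GENCODE vM21.
Canx: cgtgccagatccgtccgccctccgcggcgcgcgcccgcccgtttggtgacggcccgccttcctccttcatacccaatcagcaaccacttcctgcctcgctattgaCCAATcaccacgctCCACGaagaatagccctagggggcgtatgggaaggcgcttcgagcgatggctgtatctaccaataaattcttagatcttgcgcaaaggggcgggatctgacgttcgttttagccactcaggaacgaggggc

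A related form, ATTGG, then any 1 base, then CCACG (element II), was found in 12 of the 27025 genes (0.0444%), among them Herpud1 and Dnajb11 (7.14% of the 28 members). Atf4 binds TGATGNAAN, which was found in 1215 of the 27025 genes (4.50%) and in 4 of the 28 members (14.3%), Chac1, Trib3, Asns and Herpud1. Both sets are shown with 8 bases on either side and the fixed letters in capitals, element II before the Atf4 site.
Herpud1, chr8:94386369-94386395, plus strand: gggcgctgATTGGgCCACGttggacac
Dnajb11, chr16:22857844-22857870, plus strand: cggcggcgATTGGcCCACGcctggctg
Herpud1, chr8:94386308-94386332, minus strand: gtgcgggcTGATGcAAcccgccgtg
Chac1, chr2:119351040-119351064, minus strand: ggcaggagTGATGcAAcggcaggga
Trib3, chr2:152344031-152344055, plus strand: cgcccggcTGATGtAAacctgagct
Asns, chr6:7693216-7693240, minus strand: cagccacaTGATGaAActtcccgca
The core of the unfolded protein response element, TGACGTGG, was found in 193 of the 27025 genes (0.714%) and in 0 of the 28 members. A match is a run of letters and not a measured binding site.

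Levels were read from sums of all wells of 1 plate and state, which gave 8 sums, and were compared between genes per kilobase of exon. The disulfide isomerase Pdia3 had the highest level of the 33, a mean of 258 CPM per kb over the 8 sums (range 162 to 333). P4hb followed with 151, Pdia6 with 118, Canx with 114, Hspa5 with 107, Creld2 with 102 and Hsp90b1 with 98.0 CPM per kb. The sensors stood at the other end: Atf6 had 1.68, Eif2ak3 0.735 and Ern1 0.0826 CPM per kb. Atf4 and Xbp1, the transcription factors below Eif2ak3 and Ern1, had 80.6 and 44.9 CPM per kb. Derl3, Trib3 and Chac1 had means of 0.245, 0.551 and 0.101 CPM per kb. Chac1 did not pass the filter on low counts, so 32 members were tested between states.

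**Figure D1:**
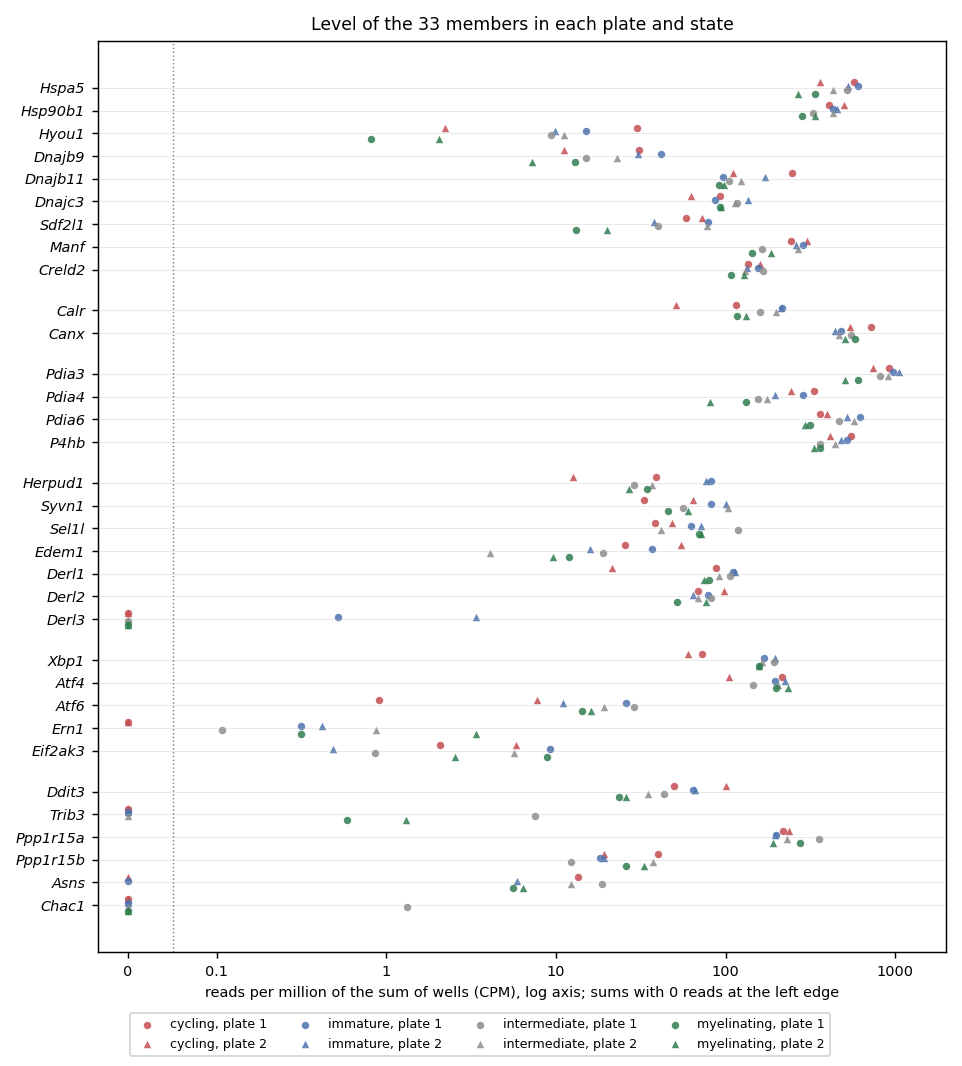
CPM of each member (log axis, sums with 0 reads at the left edge) in the 8 sums, coloured by state, with circles for plate 1 and triangles for plate 2. Pdia3 reaches the highest value, 1045 CPM, and Derl3, Ern1, Trib3, Asns and Chac1 are at 0 in at least 1 sum.

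The 33 genes together took 0.600% and 0.581% of the reads of immature wells in plates 1 and 2, and 0.517% and 0.540% of those of intermediate wells. In myelinating wells they took 0.419% and 0.398%, and in cycling wells 0.571% and 0.479%. The myelinating sums were below those of every other state in both plates. In the same sums 10 abundant myelin genes took 16.4% and 16.7% of the reads of myelinating wells and 1.25% and 1.28% of those of immature wells. The tests used TMM scaling, whose factors ran from 0.851 for myelinating to 1.12 for immature sums, and fold changes below are on that scale while CPM are unscaled. Myelinating wells were also deeper, with a median of 819462 and 719230 reads per well against 476354 and 418998 in immature wells.

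The question of each comparison was whether members differ between states beyond the spread of the 2 plates. In edgeR's quasi-likelihood test, with p-values adjusted over 13904 genes, 0 of 32 members passed the threshold of 0.05 between myelinating and immature sums, where 5.14% of all genes passed. It was likewise 0 of 32 for intermediate against immature (2.00% of all genes) and for myelinating against intermediate (0.784%). In cycling against immature sums 1 of 32 passed, Xbp1, which was lower (2.58% of all genes passed, and 1.29% were lower). At an unadjusted p under 0.05 the counts were 8 of 32 for myelinating against immature (16.3% of all genes), 2 for intermediate against immature (1523 of 13904, or 11%), 3 for myelinating against intermediate (9.36%) and 5 for cycling against immature (15.4%). The median log2 change of the members was -0.13 for myelinating against immature, -0.07 for intermediate against immature, -0.09 for myelinating against intermediate and -0.09 for cycling against immature. The medians of all genes were -0.04, -0.03, 0.00 and -0.13 in the same order. Of the 32 members, 18 had negative and 14 positive changes in myelinating against immature sums, beside 7184 and 6680 of all 13904 genes.

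Other tools called other members. DESeq2 called 1 member, Canx, between myelinating and immature sums (10.8% of all genes) and 3 between cycling and immature sums, Canx, Calr and Xbp1 (10.6%). It called 0 in each comparison with intermediate sums, where 7.21% (against immature) and 5.00% (against myelinating) of all genes passed, and 3 and 4 members had an unadjusted p under 0.05. With equal weight per cell, by limma on mean CPM, 6 members were lower in myelinating than in immature wells: Hspa5, Sdf2l1, Pdia3, Pdia6, Derl3 and Ddit3 (11.3% of all genes were called). This fit differs in weighting, scaling and tool at once, and its median of all genes was -0.32 against -0.04 in edgeR and that of the members -0.45 against -0.13. In cycling against immature wells it called Calr and Xbp1, both lower (5.75% of all genes), and 0 members in intermediate against immature (3.34%) and myelinating against intermediate wells (2.18%), where 5 members each had an unadjusted p under 0.05.

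**Figure D2:**
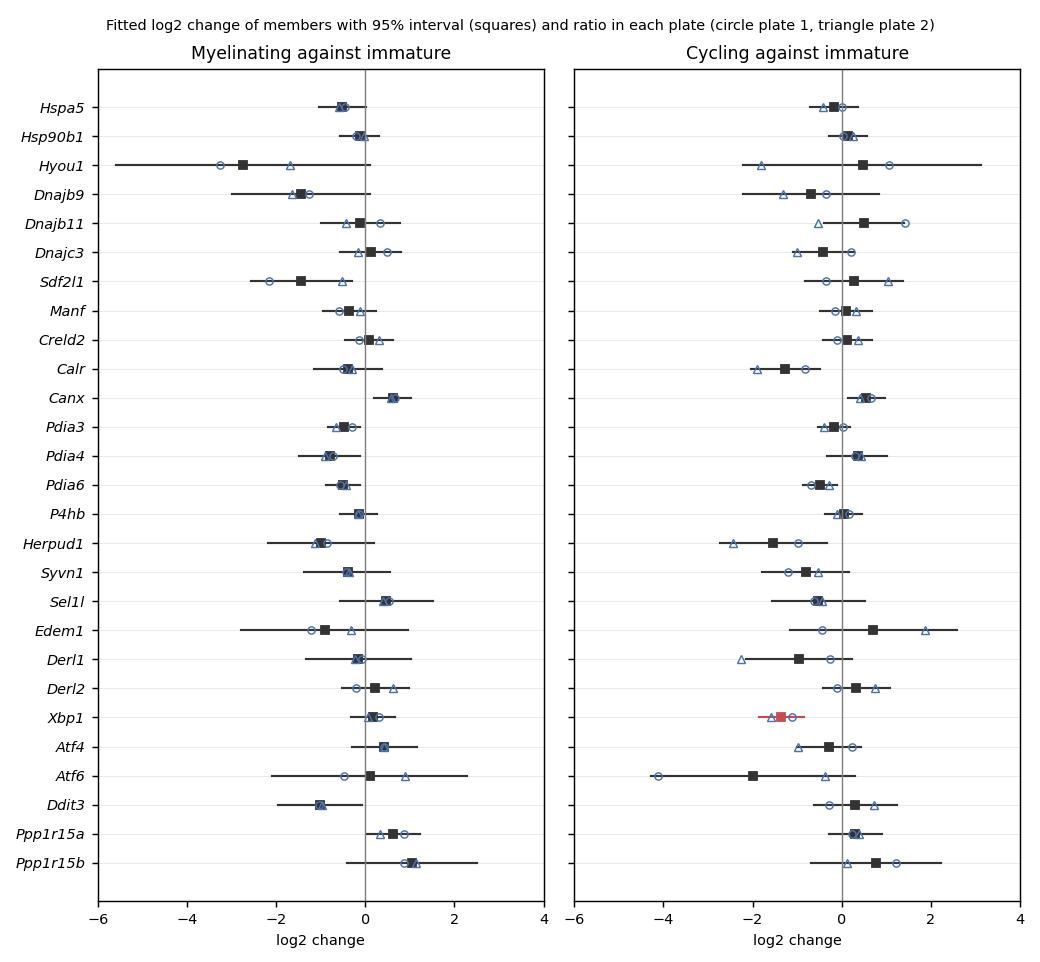
Fitted log2 change (squares) with its 95% interval for 27 members in myelinating against immature and cycling against immature sums, with the log2 ratio in plate 1 (circles) and plate 2 (triangles), and the member that passed the threshold in red. Xbp1 at -1.36 in cycling sums is the red one. Of the 6 members left out, Chac1 was not in the fit. The others, Derl3, Ern1, Eif2ak3, Trib3 and Asns, had a standard error of 1.3 or more in at least 1 comparison.

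Xbp1 (chr11:5520659-5525893, plus strand, GRCm38) is the transcription factor made active by Ern1. It had 72.5 CPM in plate 1 and 59.8 CPM in plate 2 of the cycling sums, against 168 and 196 CPM in immature, 192 and 163 CPM in intermediate and 158 and 157 CPM in myelinating sums. The cycling sums lay below all 6 others. Xbp1 fell in cycling against immature sums by 1.36 on the log2 scale (SE 0.224, adjusted p = 0.0181 in edgeR), with log2 ratios of -1.12 in plate 1 and -1.58 in plate 2. It was called in all 10 fits run, with adjusted p from 1.32e-05 to 0.0359 and log2 changes from -1.46 to -1.28. At least 1 read of Xbp1 was found in 31.2% of cycling wells of plate 1 and 36.0% of plate 2, or 33.3% of the 57 together (95% exact interval 21.4 to 47.1). The share was 45.3% and 58.2% in immature wells and 67.6% (57.9 to 76.3) and 72.6% (63.4 to 80.5) in myelinating wells. Thinned to 100000 reads per well, the shares were 32.3% and 37.5% in cycling, 41.6% and 54.7% in immature and 63.2% and 66.4% in myelinating wells. Between myelinating and immature sums the log2 change of Xbp1 was 0.18 (SE 0.220, 95% interval -0.32 to 0.67, adjusted p = 0.834), and 1 of the 10 fits gave it a negative sign.

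The lectin chaperones calreticulin (Calr) and calnexin (Canx) hold newly made glycoproteins by their sugar chains, Calr free in the ER and Canx in its membrane. Calr had 115 and 51.3 CPM in cycling sums of plates 1 and 2, against 215 and 211 CPM in immature, 159 and 197 CPM in intermediate and 116 and 132 CPM in myelinating sums. Its cycling and immature sums did not overlap, and its log2 change between them was -1.26 (SE 0.342, adjusted p = 0.107 in edgeR). It was called there by 4 of the 10 fits: DESeq2 (adjusted p = 0.0140), limma with equal weight per cell (0.0281), edgeR with no filter on low counts (0.00530, 5.14% of all genes called) and edgeR on thinned wells (0.0390, 4.11% of all genes called). Over the 10 fits its adjusted p ran from 0.00530 to 0.143, and the change was negative in all 10. Canx had 479 and 441 CPM in immature, 547 and 466 CPM in intermediate, 575 and 504 CPM in myelinating and 717 and 542 CPM in cycling sums. Its immature sums lay below both its myelinating and its cycling sums. The log2 change of Canx was 0.61 (SE 0.181, adjusted p = 0.110) in myelinating and 0.55 (SE 0.181, adjusted p = 0.178) in cycling against immature sums. With the plate as a replicate block its myelinating change passed (log2 0.61, adjusted p = 0.0398, 4.86% of all genes called), as it did with no filter on low counts (adjusted p = 0.0489, 7.25% of all genes called) and in DESeq2 (log2 0.64, adjusted p = 0.0111). Over the 10 fits the adjusted p of Canx between myelinating and immature sums ran from 0.0111 to 0.458, and the sign was positive in all 10.

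Of the disulfide isomerases, Pdia3, P4hb and Pdia6 held the highest 3 levels of the list per kb. Pdia3 (chr2:121413775-121438687), which works with Calr and Canx on glycoproteins, had 964 and 1045 CPM in immature, 812 and 907 CPM in intermediate, 601 and 508 CPM in myelinating and 916 and 734 CPM in cycling sums. Pdia6 had 615 and 521 CPM in immature, 466 and 567 CPM in intermediate, 316 and 295 CPM in myelinating and 360 and 394 CPM in cycling sums. In unscaled CPM both had their lowest 2 sums in myelinating wells. On the TMM scale this held for Pdia3, while Pdia6 was lowest in the cycling sum of plate 1 (343 CPM, against 372 and 345 CPM in myelinating sums). Pdia4 had 287 and 196 CPM in immature, 155 and 175 CPM in intermediate, 132 and 80.4 CPM in myelinating and 332 and 244 CPM in cycling sums. P4hb, also a subunit of collagen prolyl hydroxylase, had 522 and 478 CPM in immature, 362 and 439 CPM in intermediate, 362 and 330 CPM in myelinating and 549 and 412 CPM in cycling sums. In myelinating against immature sums all 4 had negative log2 changes, from -0.80 for Pdia4 to -0.15 for P4hb, beside 7184 of all 13904 genes tested. The sign of the 4 was negative in each of the 10 fits. None of the 4 passed in edgeR: the adjusted p was 0.159 for Pdia3 (log2 -0.47, SE 0.158), 0.151 for Pdia6 (log2 -0.51, SE 0.168), 0.215 for Pdia4 (log2 -0.80, SE 0.297) and 0.832 for P4hb. Pdia3, Pdia6 and Pdia4 had an unadjusted p under 0.05. With equal weight per cell Pdia3 (adjusted p = 0.0135) and Pdia6 (0.0205) passed as lower. Summed over the 4 isomerases the share of reads was 0.239% and 0.224% in immature and 0.141% and 0.121% in myelinating wells. These shares are unscaled, and the TMM factors were 1.12 and 1.11 for immature and 0.851 and 0.857 for myelinating sums.

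**Figure D3:**
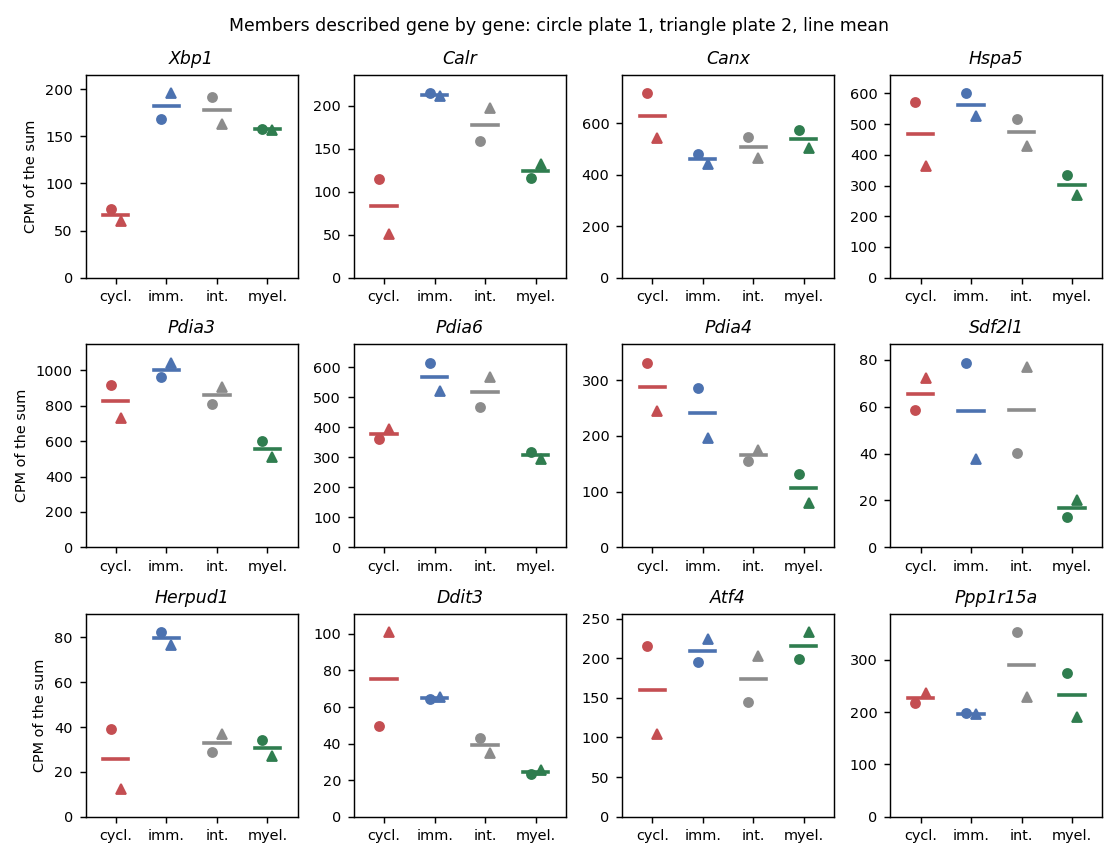
CPM of 12 members in each state (axes from 0), with circles for plate 1, triangles for plate 2 and a line at the mean of the 2 plates. Xbp1 and Calr are lowest in cycling sums, while Hspa5, Pdia3, Pdia4, Pdia6, Sdf2l1 and Ddit3 have their lowest 2 sums in myelinating wells. These CPM are unscaled, and on the TMM scale Hspa5 and Pdia6 each have a cycling sum below a myelinating one.

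Hspa5 (chr2:34771970-34777547), the main chaperone of the ER and the sensor of its load, had 601 and 525 CPM in immature, 518 and 427 CPM in intermediate and 335 and 268 CPM in myelinating sums. In cycling sums it had 571 and 362 CPM. The log2 change in myelinating against immature sums was -0.52 (SE 0.236, 95% interval -1.05 to 0.02, adjusted p = 0.328), with -0.45 in plate 1 and -0.59 in plate 2. It passed in 1 of the 10 fits, with equal weight per cell (log2 -0.86, adjusted p = 0.0486). Hsp90b1 (GRP94), which folds integrins among other clients, had 429 and 451 CPM in immature and 283 and 337 CPM in myelinating sums, a log2 change of -0.12 on the TMM scale (adjusted p = 0.882). Sdf2l1, a partner of the J-domain chaperones, had 78.9 and 37.7 CPM in immature, 40.1 and 77.1 CPM in intermediate, 58.5 and 72.5 CPM in cycling and 13.1 and 20 CPM in myelinating sums. Its myelinating sums lay below the 6 others, and its plates lay far apart in immature and intermediate sums. The log2 change of Sdf2l1 was -1.44 (SE 0.495, adjusted p = 0.177) against immature and -1.58 (SE 0.497, adjusted p = 0.300) against intermediate sums.

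Of the other chaperones and co-chaperones, Manf, an ER protein that is also secreted as a growth factor, had 284 and 261 CPM in immature and 143 and 184 CPM in myelinating sums (log2 -0.36, adjusted p = 0.604). Creld2 had 155 and 134 CPM in immature and 107 and 128 CPM in myelinating sums (log2 0.08, adjusted p = 0.945). Dnajb11 and Dnajc3, J-domain partners of Hspa5, had log2 changes of -0.11 and 0.13 in the same comparison. Dnajb9, the partner that returns Hspa5 to Ern1, had 41.3 and 30.6 CPM in immature and 12.9 and 7.24 CPM in myelinating sums (log2 -1.45, SE 0.684, adjusted p = 0.347). Hyou1, the exchange factor of Hspa5, had reads in 51 of 655 wells and 15.1 and 9.88 CPM in immature sums. In cycling sums Hyou1 had 30.2 CPM in plate 1 and 2.23 CPM in plate 2, and 1 well held 18.4% of all its reads. Of the 9 genes of this group 7 had negative changes in myelinating against immature sums (median -0.36), beside 7184 of all 13904 genes tested. With equal weight per cell Dnajc3 and Creld2 were negative too. In cycling against immature sums 3 of the 9 had negative changes (median 0.13), beside 7677 of the 13904. The group's unscaled shares of reads were 0.179% and 0.176% in immature, 0.146% and 0.160% in intermediate, 0.108% and 0.114% in myelinating and 0.181% and 0.158% in cycling wells.

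The genes of ER-associated degradation had lower levels. Herpud1, a scaffold of the degradation complex, had 82.4 and 76.7 CPM in immature, 28.8 and 36.8 CPM in intermediate, 34.3 and 27.0 CPM in myelinating and 39.0 and 12.6 CPM in cycling sums. Its immature sums lay above the 6 others. None of the 3 comparisons with immature sums passed: the log2 change of Herpud1 was -1.53 (SE 0.532, adjusted p = 0.211) for cycling, -1.14 (SE 0.526, adjusted p = 0.485) for intermediate and -0.99 (SE 0.525, adjusted p = 0.417) for myelinating sums. Syvn1, the ubiquitin ligase of the pathway, had 81.7 and 101 CPM in immature, 45.6 and 60.2 CPM in myelinating and 32.8 and 63.8 CPM in cycling sums. Its adaptor Sel1l had 62.7 and 71.2 CPM in immature and 69.7 and 72 CPM in myelinating sums. Derl1 and Derl2, membrane proteins of the exit channel, had means of 85.7 and 73.7 CPM over the 8 sums, and Edem1, which trims mannose from misfolded glycoproteins, had a mean of 22.2 CPM. In myelinating against immature sums 5 of these 7 genes had negative changes, with a median of -0.40, beside 7184 of all 13904 genes tested. The signs of Derl1 and Derl2 each turned in 1 of the 10 fits. The third derlin, Derl3, carries the ER stress response element shown above. It had reads in 2 of 655 wells, both immature, with 28 reads in plate 1 and 203 reads in plate 2, and was at 0 in all other sums.

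Among sensors and transcription factors, Atf4 had 195 and 224 CPM in immature, 145 and 203 CPM in intermediate, 199 and 233 CPM in myelinating and 215 and 105 CPM in cycling sums. The CPM ranges of all 4 states overlapped. The log2 ratio of myelinating to immature sums was 0.42 in plate 1 and 0.43 in plate 2 on the TMM scale (log2 0.43, SE 0.320, adjusted p = 0.616), and 1 of the 10 fits gave a negative sign. Atf6 had reads in 105 wells, Eif2ak3 in 40 (6.11%) and Ern1 in 20 (3.05%). In cycling wells Ern1 had 0 reads in both plates. Atf6 had 0.905 and 7.76 CPM in cycling sums and 26.0 and 11 CPM in immature sums, with a 95% interval of the log2 change from -4.27 to 0.31. At these read numbers differences of the sensors between states were not detectable. In myelinating against immature sums all 5 genes of this group had positive changes (median 0.43), beside 6680 of all 13904 genes. Of the 5, 0 had an unadjusted p under 0.05 there in edgeR. In cycling against immature sums all 5 had negative changes, beside 7677 of the 13904.

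The outputs of the integrated stress response, the branch through Eif2ak3 and Atf4, did not share a direction. Of the 5 tested, 4 had positive changes and 1, Ddit3, a negative one in myelinating against immature sums (median 1.04). Positive changes there were found for 6680 of all 13904 genes, and Trib3 and Asns had few reads. Ddit3 (CHOP) had 64.5 and 65.7 CPM in immature, 43.1 and 34.9 CPM in intermediate, 23.5 and 25.7 CPM in myelinating and 49.5 and 101 CPM in cycling sums. The myelinating sums were the lowest, with a log2 change of -1.02 (SE 0.413, adjusted p = 0.260) against immature sums. Ddit3 overlaps Mars and Gm4189 in the annotation, as 12 of the 33 members overlap some other gene, and where the counting did not use strand such reads cannot be told apart. Ppp1r15a (GADD34), the phosphatase subunit that ends the translational block, had 198 and 196 CPM in immature, 353 and 229 CPM in intermediate, 275 and 191 CPM in myelinating and 218 and 236 CPM in cycling sums. Its log2 change was 0.70 (SE 0.264, adjusted p = 0.344) in intermediate and 0.63 (SE 0.264, adjusted p = 0.282) in myelinating against immature sums. The share of wells with a Ppp1r15a read was 57.5% and 58.2% in immature, 78.5% and 75.7% in intermediate and 84.3% and 81.4% in myelinating wells. These shares are not corrected for depth, and myelinating wells were deeper than immature ones. Ppp1r15b, the constitutive counterpart of Ppp1r15a, had 18.1 and 19.1 CPM in immature and 25.7 and 32.9 CPM in myelinating sums (log2 1.04, SE 0.644, adjusted p = 0.509).

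Trib3, Asns and Chac1, classical targets of Atf4 whose promoters carry the Atf4 site shown above, were found in few wells. Trib3, a pseudokinase, had reads in 7 of 655 wells (1.07%), 2 of them intermediate and 5 myelinating. Asns, asparagine synthetase, had reads in 23 wells (3.51%). It was found in 6.33% and 5.71% of intermediate wells, 4.63% and 5.31% of myelinating wells and 0% and 1.64% of immature wells. Chac1, an enzyme that degrades glutathione, had reads in 1 well, an intermediate well of plate 1 with 62 reads of Chac1 among 560678 reads in all. That well also held 70 reads of Trib3, 191 of Asns, 81 of Ddit3, 419 of Atf4 and 188 of Herpud1. Ppp1r15a, at 177 CPM, was not high there: 39 of the 78 other intermediate wells of the plate were at or above it. Ppp1r15b had 0 reads. The 18 other Atf4 targets were named after their values were seen. Of these, Slc3a2 was as high or higher in 50 of the 78 wells. Cebpb, Cebpg, Ddit4, Nupr1, Slc7a11, Slc7a5, Stc2 and Vldlr had 0 reads in the Chac1 well. Atf5 was there above all 78 (7 reads), while 2 were at or above it for Sesn2 (3 reads) and 4 for Mthfd2. The number was 4 for Aldh18a1 (2 reads), 5 for Psph, 6 for Atf3 (5 reads), 10 for Psat1, 19 for Shmt2 and 22 for Phgdh. The Herpud1 level of the Chac1 well, 335 CPM, was above that of the 78 other intermediate wells of the plate. The highest of those was 266 CPM. For Asns and Trib3 1 of these 78 wells was at or above it, and for Atf4 3 were. Hspa5, at 515 CPM in this well, was at or above that level in 26 of the 78. This well was singled out for its Chac1 reads, and it is 1 cell.

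Across single wells the folding genes were found in most cells and the sensors in few. Pdia3 had a read in 96.3% of the 655 wells, Canx in 95.7%, P4hb in 95.4%, Hsp90b1 in 91.1%, Hspa5 in 88.9%, Pdia6 in 84.1% and Calr in 82.4%. Thinning to 100000 reads per well, which leaves out 22 shallower wells, gave 95.9% for Pdia3, 87.2% for Hspa5 and 77.9% for Calr. The median share over the 33 members was 47.0%, and 43.9% in thinned wells. Sdf2l1 was found in 27.4% and 21.3% of immature wells and in 10.2% and 11.5% of myelinating wells. Dnajb11 was found in 77.2% of cycling wells of both plates (95% exact interval 64.2 to 87.3) and in 44.7% of immature wells (38.2 to 51.4), while the log2 ratio of its level was 1.43 in plate 1 and -0.52 in plate 2 (adjusted p = 0.577 in edgeR). Cycling wells had a median of 4024 and 3989 detected genes in plates 1 and 2, against 2925 and 3188 in immature wells. The share was also higher in cycling than in immature wells for Pdia4 (82.5% against 65.8%), and lower for Calr (70.2% against 80.3%). Intervals of these shares cover counting error only, since reads without molecular identifiers are not independent molecules.

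**Figure D4:**
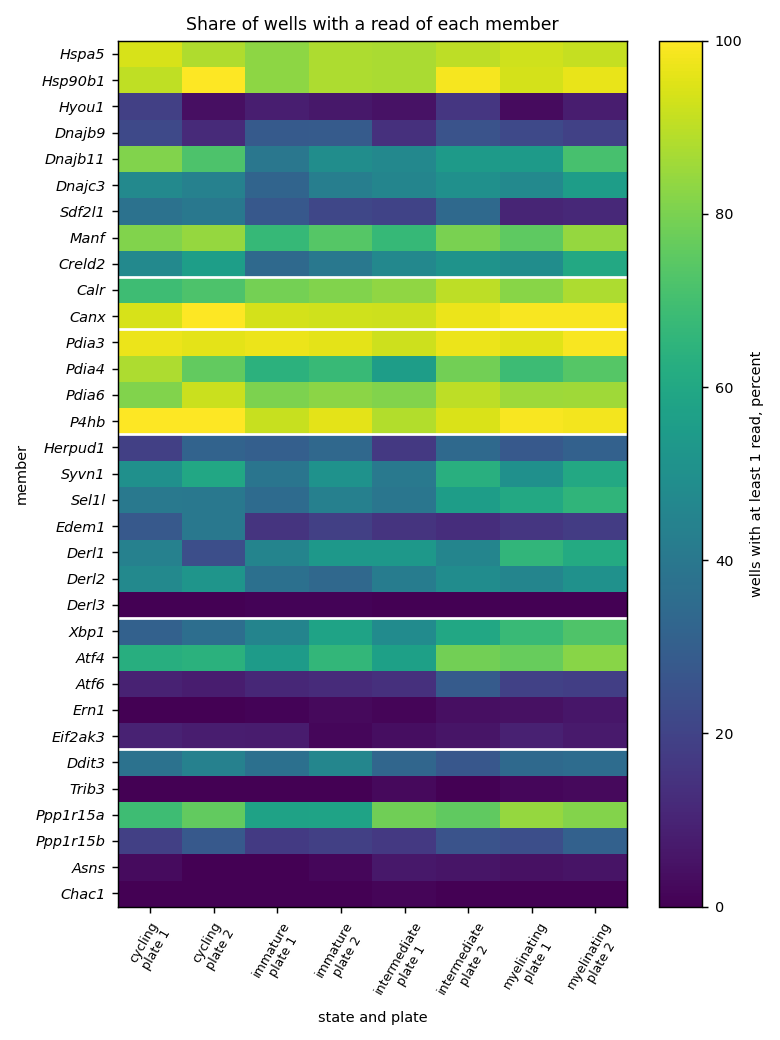
Share of wells with at least 1 read of each member (colour, percent) in the 4 states and 2 plates, with white lines between the roles. Pdia3 (96.3% of all wells), Canx, P4hb, Hsp90b1, Hspa5 and Pdia6 (84.1%) stand out in every column, while Derl3, Chac1, Trib3, Ern1 and Asns stay at or under 6.33%.

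Within a state, wells with more of 1 folding gene tended to have slightly more of the others. Spearman's rho of CPM was computed within each plate and state of the 3 non-cycling states, 6 sets of 70 to 122 wells, for the 15 members found in at least 50% of wells. Wells of a set share their plate, animals and preparation, and the values are given as a description. Among 45 pairs of folding genes the mean rho over the 6 sets had a median of 0.133 (range 0.0482 to 0.282), and 24 pairs were positive in all 6 sets. The pair with the highest value was Hspa5 and Pdia6 (0.282, range over sets 0.179 to 0.393). Xbp1 had a median of 0.155 with the 10 folding genes, up to 0.251 with Pdia6. Atf4 had a median of 0.0161 with the same 10 genes and Ppp1r15a 0.0518. Thinned wells gave 0.128 for the folding pairs, of which 20 were positive in all 6 sets, and 0.167 for Xbp1. All these correlations are weak, and in sparse counts they carry no call. Pairs of genes outside the list were not computed, so whether the pattern is particular to folding genes was not tested.

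**Figure D5:**
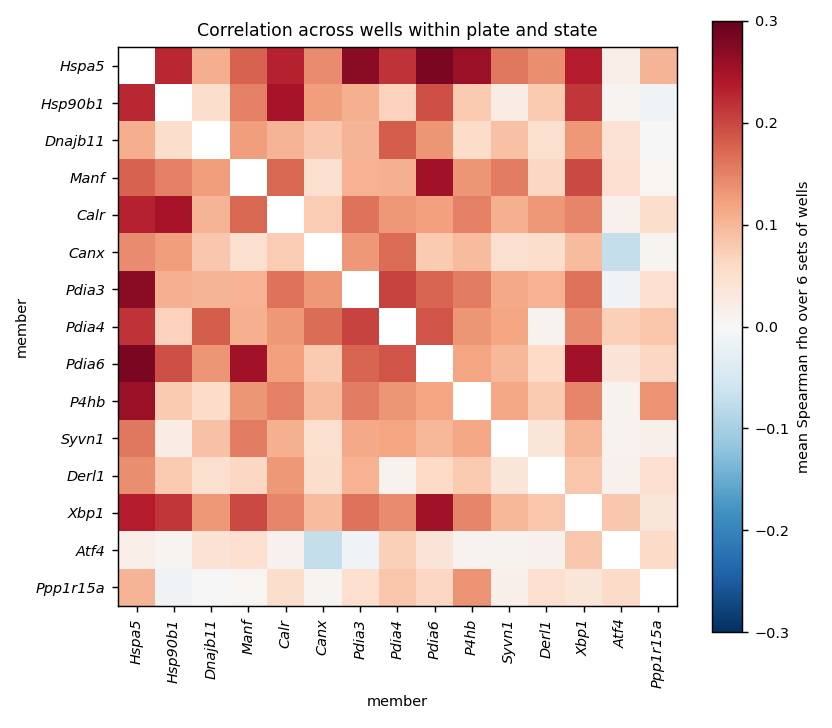
Mean Spearman's rho across wells over 6 sets (colour) for pairs of 15 members. Pairs of folding genes and Xbp1 reach up to 0.282, and the row of Atf4 stays between -0.0726 and 0.0803.

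The 9 members with the ER stress response element in their window had a median level of 98.0 CPM per kb (range 0.245 to 118), and the 19 members with a window but no match had 18.1 CPM per kb (range 0.0826 to 258). Both ranges span the list: Derl3 carries the element at the lowest level of its group, and Pdia3 has the highest level of all 33 with no match. The median log2 change was -0.40 with the element and 0.03 without it in myelinating against immature sums, and -0.42 and 0.03 in cycling against immature sums. It was -0.07 with and -0.10 without in intermediate against immature sums, and -0.10 and -0.01 in myelinating against intermediate sums. The group without a match holds Herpud1 and Dnajb11, which carry element II, and a part of the element in these changes was not tested. Xbp1 itself, the member that passed the threshold, is among those without a match.

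Genes of neighbouring pathways that are not members were read from fixed lists. Of all genes, 5.14% passed in myelinating against immature sums in edgeR, 10.8% in DESeq2 and 11.3% in limma with equal weight per cell. An unadjusted p under 0.05 in edgeR was reached there by 16.3% of all genes. In cycling against immature sums 2.58% of all genes passed in edgeR. Of 17 genes of translocation into the ER, 1 passed in myelinating against immature sums in edgeR (1 in DESeq2 and 2 in limma with equal weight per cell), Ssr1, a subunit of the translocon-associated complex, which rose from 343 and 339 CPM to 557 and 516 CPM (log2 1.04, SE 0.142, adjusted p = 0.00329). It also rose in cycling sums, to 595 and 598 CPM (log2 0.91, adjusted p = 0.0148). Of 11 genes of N-glycosylation, 0 passed in myelinating against immature sums in edgeR (2 at an unadjusted p under 0.05, 0 in DESeq2 and 4 in limma with equal weight per cell), and 1 rose in cycling sums, Rpn2 of the oligosaccharyltransferase (log2 0.98, adjusted p = 0.0391). Of 13 other folding and oxidation genes, edgeR called 1 in myelinating against immature sums, DESeq2 2 and limma with equal weight per cell 4. The one called by edgeR was Prdx4, an ER peroxidase that passes oxidizing power to isomerases. Prdx4 had 309 and 341 CPM in immature, 121 and 149 CPM in intermediate, 63.5 and 60.7 CPM in myelinating and 724 and 990 CPM in cycling sums. It fell by 2.00 on the log2 scale in myelinating against immature sums (SE 0.210, adjusted p = 7.64e-04) and rose in cycling against immature sums (log2 1.51, SE 0.207, adjusted p = 0.00945). Of 11 other degradation genes and 18 export and retrieval genes, 0 passed in edgeR in myelinating against immature sums (1 and 3 at an unadjusted p under 0.05). There DESeq2 called 1 and 2 of them, and limma with equal weight per cell 1 and 1. Of 12 cytosolic aminoacyl-tRNA synthetases 0 passed in any of the 3 tools, and 0 had an unadjusted p under 0.05 in edgeR.

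Of 18 other Atf4 targets, 16 were tested. Slc3a2, a chain of amino acid transporters, rose from 341 and 279 CPM in immature to 743 and 638 CPM in myelinating sums (log2 1.54, SE 0.190, adjusted p = 0.00180). Psat1, of serine synthesis, rose from 169 and 188 CPM to 326 and 312 CPM (log2 1.22, SE 0.193, adjusted p = 0.00717). Psat1 (log2 0.94, adjusted p = 0.0419) and Phgdh (log2 0.78, adjusted p = 0.0425), the first enzyme of serine synthesis, rose in cycling against immature sums. In myelinating against immature sums edgeR called 2 of the 16 tested targets, DESeq2 2 and limma with equal weight per cell 6. The 3 tools called 5.14%, 10.8% and 11.3% of all genes there. The median log2 change of the 16 was -0.46 in edgeR. A companion list of 12 immediate-early and heat shock genes, which dissociation of tissue can raise, took 1.08% and 1.13% of reads in immature, 1.08% and 0.757% in cycling, 0.465% and 0.504% in intermediate and 0.479% and 0.435% in myelinating wells. Of the 12, 4 fell in myelinating against immature sums in edgeR (5 were called by DESeq2 and 6 by limma with equal weight per cell), among them Ier2 (log2 -3.22, adjusted p = 0.00415) and Jun (log2 -2.92, adjusted p = 0.00466). The share of this list, like the levels of Herpud1 and Ddit3, was higher in immature than in intermediate and myelinating sums, and its part in their levels was not tested.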

How the data were processed

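RNA of single sorted Schwann cells was measured in 768 wells of 2 plates. The deposited table holds raw counts of reads per gene and well, made by the authors with STAR and featureCounts. The submitters' processing notes name STAR 2.6.1c and build GRCm38.p5, while the methods of the study name another STAR version and a human build, although the identifiers are of mouse. The strand setting of the counting is not given in the sources used here. Identifiers were matched to GENCODE vM21 (25664 of 25700 genes, the 36 others with 0.0821% of reads), which supplied symbols and coordinates. Promoter sequences were those of RefSeq (GRCm38.p6). Protein sequences were not analysed here.

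The 33 members, the state rule and the lists were chosen with earlier results of these data known. Every member is named. Of each other list, up to 2 genes per direction with the largest log2 change are named, in myelinating and in cycling against immature sums, that passed the threshold, had a mean of at least 50 CPM and moved the same way in both plates. Wells with at least 1500 genes outside the corners A01, A24, P01 and P24 were kept, no doublet caller was run, and 0 pairs of wells had identical counts. Reads were summed per plate and state and fitted with edgeR 4.0.16 in R 4.3.3 (quasi-likelihood test, TMM, filterByExpr, 1 spread for all states, 4 residual degrees of freedom, common dispersion 0.713), with Benjamini-Hochberg adjustment over 13904 genes at 0.05. To form log2 ratios of the 2 states of a plate, 0.5 CPM was added to both. The script was tested on simulated data. Shares have exact Clopper-Pearson intervals at 95%, and limits for 0 wells are 3 counts of the total.

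All sums of a plate stem from 1 pool of animals, and the plate number therefore pairs them. Between sums of 1 plate, deviations from the state means had a correlation r from -0.0224 to 0.187 over 1976 genes for 6 pairs of states. Alternatives were DESeq2 1.42.0, RLE factors, no count filter, the plate as a replicate block, a minimum of 2500 genes, scaling without abundant myelin genes, leaving out wells near the state limits, equal weight per cell (limma 3.58.1 on log2 of mean CPM with 1 CPM added), wells thinned to 100000 reads, and leaving out each plate.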

Additional observations from a re-analysis of the deposited data

How the results depend on the processing

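Xbp1 in cycling against immature sums was called in all 10 fits, with log2 ratios of -1.58 without plate 1 and -1.12 without plate 2. Members higher in myelinating against immature sums numbered 0, and 1 (Canx) with DESeq2, with no filter and with the replicate block, which changed no other call of a member. Members lower there numbered 0, and 6 with equal weight per cell. In cycling against immature sums 1 member (Canx) was higher in DESeq2, and 2 (Calr, Xbp1) were lower in DESeq2, with no filter, with equal weight and in thinned wells. The cause of these differences was not tested. The median log2 change of members, -0.13 for myelinating against immature, was -0.17 with a minimum of 2500 genes, -0.08 when scaled without myelin genes, -0.08 without wells near limits and -0.45 with equal weight, and ran from -0.21 to -0.16 when 1 plate was left out. For myelinating against intermediate, -0.09 became -0.04 without myelin genes, -0.32 with equal weight and -0.15 in thinned wells, and ran from -0.11 to -0.08 with 1 plate. With 1 plate it ran from -0.25 to 0.01 for intermediate against immature and from -0.38 to -0.13 for cycling against immature. The ratio of 1 remaining plate has no test. Equal weight moved the median of all genes to -0.32, -0.15, -0.13 and -0.23 in the 4 comparisons.

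Counts over all genes moved by more than 1.5 times from 715 to 1507 (DESeq2), 1197 (no filter) and 1578 (equal weight) for myelinating against immature. For intermediate against immature 278 became 944, 692, 464, 489 (thinned) and 145 (without wells near limits). For myelinating against intermediate 109 became 655, 435, 303, 206 (thinned) and 229 (without wells near limits). For cycling against immature 359 became 1365, 848, 799 and 218 (without wells near limits). With 2 plates and few reads, the sensors Atf6, Ern1 and Eif2ak3, and Trib3 and Asns passed in none of the 10 fits. Chac1 did not enter the main fit and was not called in the fit with no count filter. The call of Derl3 with equal weight rests on reads in 2 wells.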
